A study of Homo sapiens with 16 samples.

Results

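The genes examined here are 10 members of the Krüppel-like factor (KLF) family of transcription factors, namely KLF2, KLF4, KLF5, KLF6, KLF7, KLF9, KLF10, KLF11, KLF12 and KLF13. They were taken by name, and each was given the H3K27ac regions that overlapped its gene body or lay within 100 kb of its 5′ end. H3K27ac, the acetylation of lysine 27 of histone H3, marks active promoters and enhancers. It was measured by chromatin immunoprecipitation and sequencing in LX-2, an immortalised line of human hepatic stellate cells with a myofibroblastic character, with 4 replicates that received the vehicle DMSO (control) and 4 that received OSMI-1 at 50 µM, both for 24 h. The compound blocks OGT, the enzyme that attaches the sugar O-GlcNAc to proteins, and is named OGTi below. The data are 2 lists of positions, 3507 regions with less (lost) and 3623 with more (gained) H3K27ac under OGTi. By the rule above, 18 of these 7130 regions belonged to the KLF genes, 11 of them lost and 7 gained. The lists give neither a signal nor a value per replicate, so that the size of a change and its spread between replicates cannot be stated for any region, and all counts below are descriptions with no test.

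KLF proteins carry C2H2 zinc fingers at their C-terminal end, by which they bind CACCC and GC-rich boxes in promoters and enhancers, and differ in the N-terminal part that recruits coactivators or corepressors. KLF2, KLF4, KLF5, KLF6 and KLF7 act mostly as activators, KLF12 recruits the corepressor CtBP, and KLF9, KLF10, KLF11 and KLF13 bind the corepressor SIN3A. In hepatic stellate cells, KLF6 is known as an immediate early gene of activation whose product transactivates collagen and TGF-beta pathway genes, and KLF10 is a TGF-beta-inducible early gene.

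Listed H3K27ac changes under OGTi were found at 7 of the 10 KLF genes, and each of these genes had regions of 1 direction only. KLF6 (3 regions), KLF2 and KLF4 (2 each) had gained regions, whereas KLF7 (5 regions), KLF9 (4), KLF12 and KLF13 (1 each) had lost regions. KLF5, KLF10 and KLF11 had none. Lost regions covered 19368 bp at the KLF genes and gained regions 12611 bp. Under the same rule, 21.6% of 20046 protein-coding genes had at least 1 lost region and 30.5% at least 1 gained region, compared with 4 and 3 of the 10 KLF genes. Both kinds of region were found at 7.2% of protein-coding genes and at none of the KLF genes, and neither kind at 55.1%, compared with 3 of the 10. With so few genes, nothing is read from these shares about the family. Arranged by the roles above, a grouping made after the values were seen, the 5 genes for activators comprised 3 with gained regions, 1 with lost regions (KLF7) and 1 with none (KLF5). Of the 4 genes for SIN3A-binding repressors, 2 had lost regions (KLF9 and KLF13) and 2 had none.

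**Figure D1:**
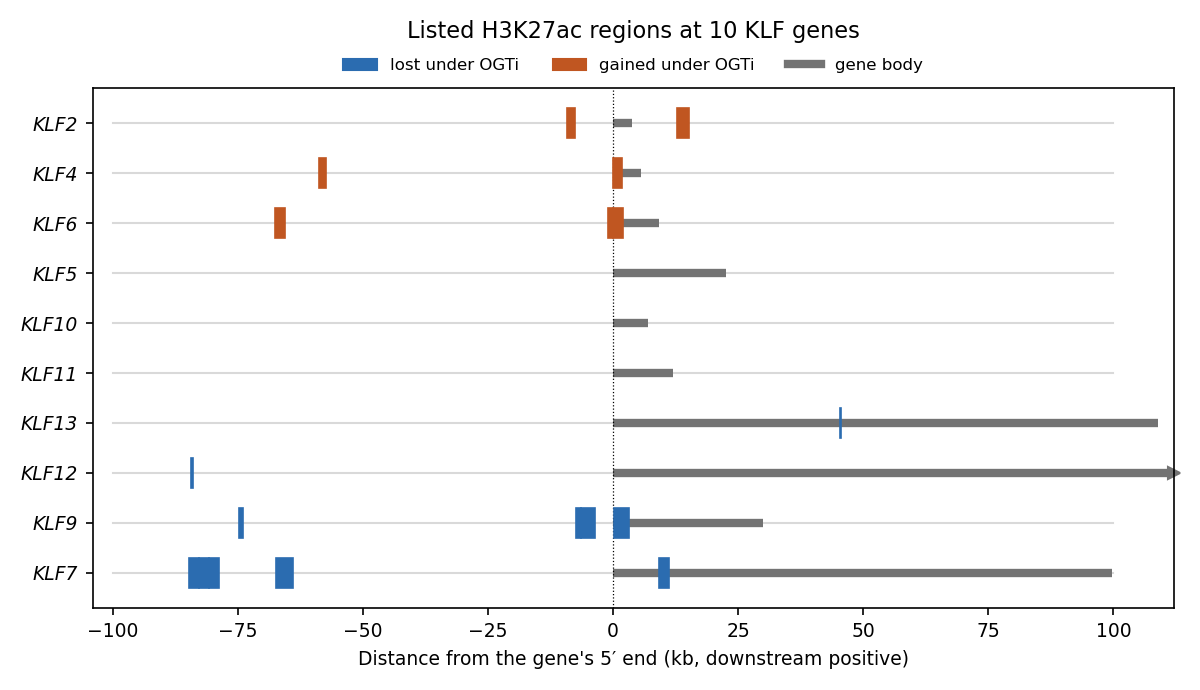
Positions of the 18 listed regions at the 10 KLF genes, in kb from each gene's 5′ end with the direction of transcription to the right. Boxes are drawn to scale, blue for lost and orange for gained regions, and the gene body is grey (that of KLF12 runs past the right edge). KLF2, KLF4 and KLF6 hold orange boxes only, and KLF7, KLF9, KLF12 and KLF13 blue boxes only.

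The KLF genes examined here, apart from KLF11, are isolated in the genome. No other protein-coding gene had its 5′ end within 100 kb of that of KLF2, KLF4, KLF5, KLF6, KLF7, KLF9, KLF10, KLF12 or KLF13, and KLF11 alone had 3 such neighbours (the median over all protein-coding genes is 3). This isolation was found for 16.2% of protein-coding genes. The nearest protein-coding 5′ end was that of the KLF gene itself for all 18 regions. Over all protein-coding genes, this held for 32.5% of the 17530 pairs of a gene and a region that the rule forms. The same share among isolated genes alone was not counted, so nothing is read from the difference. Among the 3248 isolated genes, 20.1% had a lost region, 20.4% a gained region, 5.94% both and 65.5% neither. Nearness does not show which gene a region acts on.

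By this rule, few protein-coding genes had as many lost regions as KLF7 and KLF9 or as many gained regions as KLF6. At least 5 lost regions, the number at KLF7, were found at 220 protein-coding genes (1.1%), and at least 4, the number at KLF9, at 411 genes (2.05%). At least 3 gained regions, as at KLF6, were found at 760 genes (3.79%), and at least 2, as at KLF2 and KLF4, at 2082 genes (10.4%). These counts depend on how wide acetylated domains were divided, since abutting regions were listed separately at KLF6, KLF7 and KLF9, and on the window. The 5 lost regions of KLF7 became 3 with abutting regions joined, 2 with each run of neighbouring regions counted once and 1 within 50 kb, and the 4 of KLF9 became 2 with each run counted once. The 3 gained regions of KLF6 became 2 under each of these changes. No share of protein-coding genes with as many regions is given under these changes, so whether the counts stay uncommon there was not tested. Among the isolated genes, at least 5 lost regions were found at 1.63% and at least 3 gained regions at 3.79%.

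**Figure D2:**
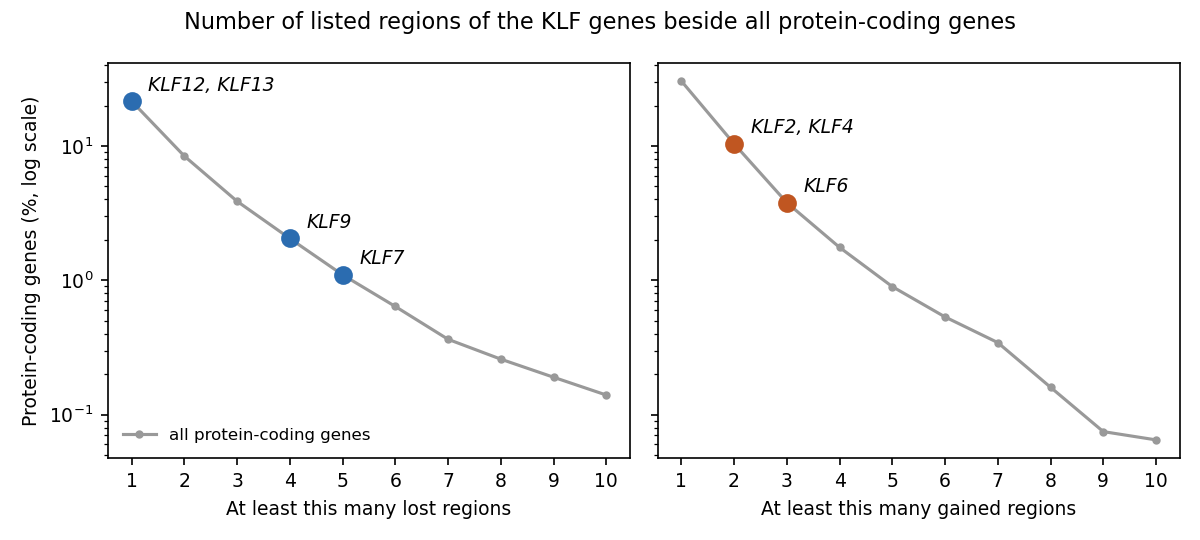
Share of the 20046 protein-coding genes (in percent, log axis) with at least the number of lost (left) or gained (right) regions on the horizontal axis. Coloured points mark the KLF genes at their own counts, from 21.6% of genes at 1 lost region (KLF12 and KLF13) to 1.1% at 5 (KLF7) and from 10.4% at 2 gained regions to 3.79% at 3 (KLF6).

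The sequences of the regions were searched on both strands for 9 consensus motifs. These were the KLF box CCACACCC, the GC box CCGCCC bound by SP and KLF proteins, the TEAD core CATTCC (TEAD factors bind DNA for the coactivator YAP1), the AP-1 motif TGANTCA of FOS and JUN dimers, the composite ATF4-C/EBP motif TGATGCAA, the ETS motif CCGGAAGT, the CRE TGACGTCA and, as named motifs, the CArG box of SRF and the MEF2 motif. None of these is contained in another, but matches can overlap. In the sequences printed below, which show the parts of the regions at KLF genes richest in matches other than GC boxes, or the bases before a start, capitals mark matches on either strand, so that GGAATG is a TEAD core and GGGCGG a GC box on the other strand. A match is a string of letters and was not shown to be bound.

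Gained H3K27ac was found at the starts of KLF4 and KLF6, and on both sides of KLF2. KLF4, a pluripotency factor that also represses smooth muscle genes, is a gene of 5.63 kb on the minus strand (hg38, chr9:107484852-107490482). Its region at 107488710 to 107490577 covered the 5′ end, with 597 bp of untranslated and 126 bp of coding sequence of the canonical transcript. This region also lay within 2500 bp of the 5′ end of ENSG00000289987. A second region of KLF4 lay far upstream (107547750 to 107549326, centre 58.1 kb from the 5′ end), its centre in no annotated gene. KLF6 spans 9.29 kb on the minus strand (chr10:3775996-3785281). The 2 abutting regions 3783218 to 3785217 and 3785218 to 3786242 covered its start, its first coding bases and part of its first intron, and 1 further region (3850765 to 3852872) was centred 66.5 kb upstream, in no annotated gene. Both abutting regions also lay within 2500 bp of the 5′ end of ENSG00000288755, which held the centre of the narrower one. KLF2, known from endothelial cells under flow, is a short gene of 3.86 kb (chr19:16324826-16328685, plus strand). Its gained regions did not touch the gene: 1 lay 7630 bp upstream of the 5′ end within the divergent non-coding gene KLF2-DT (16315573 to 16317196) and 1 beyond the 3′ end, 12725 bp from the 5′ end (16337551 to 16339959). Hence 3 of the 7 gained regions lay within 2500 bp of the 5′ end of their KLF gene, while 31.0% of all gained regions lay that close to a protein-coding 5′ end.

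The start regions of KLF4 and KLF6 held GC boxes, whereas their distal regions held none. There were 15 in the KLF4 start region, and at KLF6 8 in the narrower and 2 in the wider region of the pair. At least 1 GC box was held by 42.9% of all gained regions. Per kb, the gained KLF regions held 2.06 GC boxes (list 1.08), from 26 matches, and nothing is read from this. The KLF4 start region also held 2 KLF boxes, 1 of them 68 bp inside the 5′ end (15.0% of gained regions held any). The bases upstream of both starts are shown on the strand of the gene, chr9:107489770-107490019 for KLF4, which ends at the RefSeq start inside the GENCODE gene, and chr10:3785282-3785531 for KLF6.
KLF4 upstream bases: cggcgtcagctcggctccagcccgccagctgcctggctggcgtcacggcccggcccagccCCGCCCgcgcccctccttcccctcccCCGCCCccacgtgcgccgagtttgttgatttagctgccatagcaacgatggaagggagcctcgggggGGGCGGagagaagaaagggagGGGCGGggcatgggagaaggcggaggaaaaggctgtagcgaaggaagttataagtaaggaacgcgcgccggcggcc
KLF6 upstream bases: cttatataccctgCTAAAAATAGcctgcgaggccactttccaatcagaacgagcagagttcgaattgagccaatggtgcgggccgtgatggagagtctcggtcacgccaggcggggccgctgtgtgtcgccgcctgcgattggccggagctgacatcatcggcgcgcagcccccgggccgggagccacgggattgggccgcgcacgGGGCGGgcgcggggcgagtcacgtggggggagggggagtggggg
The KLF6 stretch includes a MEF2 match 232 bp upstream of the GENCODE 5′ end. MEF2 factors are known activators of KLF2 and KLF4 downstream of the kinase MAPK7. Among the 35116 promoter windows of RefSeq (GRCh38.p14, 250 bases before to 50 after a start), 0.572% held a MEF2 match, the window of KLF2 among them, while that of KLF6 ended short of its match. A GC box was held by 45.0% of these windows and by 9 of the 17 windows of KLF genes. Counted by gene, 8 of the 9 KLF genes with windows had at least 1 that held a GC box, KLF9 being the exception. A count by gene is not comparable with a share of windows, since some genes had several windows. The KLF box was held by 3.28% of all windows and by none of these 17. Only the windows of KLF4 and KLF6 overlapped listed regions, over their full 300 bases.

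The distal gained regions differed from the start regions in their letters. The KLF6 region 66.5 kb upstream held 5 AP-1 matches and no GC box, against 1 AP-1 match or none in every other gained region at KLF genes, and an AP-1 match was present in 53.6% of all gained regions. The KLF4 region 58.1 kb upstream held 1 ATF4-C/EBP match (10.1% of gained regions) and 1 ETS match (6.71%). The downstream KLF2 region held 2 TEAD cores and 1 AP-1 match, and the upstream KLF2 region no match to any of the 9 motifs. The stretches of KLF6 (chr10:3850774-3850877) and KLF2 (chr19:16339028-16339162) with the most matches are given on the plus strand.
KLF6, 66.5 kb upstream: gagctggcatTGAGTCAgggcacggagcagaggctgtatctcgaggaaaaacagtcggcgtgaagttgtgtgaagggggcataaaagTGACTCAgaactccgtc
KLF2, 13.9 kb downstream: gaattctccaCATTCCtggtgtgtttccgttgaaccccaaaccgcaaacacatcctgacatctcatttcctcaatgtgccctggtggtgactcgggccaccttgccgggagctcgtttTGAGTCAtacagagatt

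Lost H3K27ac was most extensive at KLF7 and KLF9. KLF7, a broadly expressed activator studied in neurons and fat cells, spans 99.7 kb on the minus strand (chr2:207074137-207173856). Of its 5 lost regions, 1 was intronic (207162694 to 207164693) and lay 9163 bp from the 5′ end of the gene but 1124 bp from the start of the nearest annotated transcript of KLF7. It also lay within 2500 bp of the 5′ ends of the non-coding genes MYOSLID, a long RNA described in smooth muscle differentiation, and MIR7845. The other 4 formed 1 run upstream between 207237784 and 207258589, of which the first region, 3331 bp wide, was centred 65.6 kb from the 5′ end in MYOSLID and was at least as wide as 98.5% of lost regions, and the last 3 abutted in ENSG00000223725, a non-coding gene on the minus strand. The first region of this run also lay within 2500 bp of the 5′ ends of ENSG00000234902 and ENSG00000240440, and the last within 2500 bp of that of LINC01802. No gained region lay closer to the 5′ end of KLF7 than 137 kb. KLF9, a repressor induced by thyroid hormone and glucocorticoids, spans 30.1 kb on the minus strand (chr9:70384604-70414657). Its first lost region (70411537 to 70414449) ended 208 bp inside the 5′ end and held 505 bp of coding and 1086 bp of untranslated sequence of the first exon. A pair of abutting lost regions began 3682 bp upstream (70418339 to 70421000 and 70421001 to 70422009), so that the 5′ end itself lay in a gap between lost regions. Both regions of this pair lay within 2500 bp of the 5′ end of another annotated gene, ENSG00000289159. The remaining lost region of KLF9 (70488535 to 70489447), centred 74.3 kb upstream, opened a run of 4 lost regions that went on to 70602624, beyond the window. Among the lost regions at KLF genes, that at the first exon of KLF9 was the only 1 of 11 within 2500 bp of the 5′ end of its gene, compared with 11.3% of all lost regions that lay so near a protein-coding 5′ end.

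TEAD cores and AP-1 matches were found together in 4 lost regions of KLF7, all of 1 run, and in 2 of KLF9. The share of the lost list that held both was not counted, so nothing is read from this pairing. A TEAD core was present in 7 of the 11 lost regions, each of them at KLF7 or KLF9, and in 73.5% of the lost list. An AP-1 match was present in 8 of the 11, and in 56.5% of the list. Per kb, the lost KLF regions held 0.62 TEAD cores (list 0.862) and 0.774 AP-1 matches (list 0.512), from 12 and 15 matches, of which 5 AP-1 matches stood in 1 region of KLF7. They held 1.34 GC boxes per kb (list 0.579), from 26 matches, of which 13 and 6 stood in 2 regions of KLF9, and 0.155 ATF4-C/EBP matches (list 0.0254), from 3 matches in all. With so few regions, nothing is read from these densities about the KLF genes. The first upstream region of KLF7 had 2 TEAD cores, 5 AP-1 matches, 1 ATF4-C/EBP match and 1 SRF match. The stretches with the most matches are shown on the plus strand for KLF7 (chr2:207239343-207239639) and for 2 lost regions of KLF9 (chr9:70419886-70420105 and chr9:70488638-70488735).
KLF7, 65.6 kb upstream: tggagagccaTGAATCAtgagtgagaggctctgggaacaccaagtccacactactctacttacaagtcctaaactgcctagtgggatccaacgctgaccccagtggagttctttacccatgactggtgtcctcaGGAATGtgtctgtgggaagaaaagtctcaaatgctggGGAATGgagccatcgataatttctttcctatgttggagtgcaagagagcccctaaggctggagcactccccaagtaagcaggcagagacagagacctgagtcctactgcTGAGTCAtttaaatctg
KLF9, 5.01 kb upstream: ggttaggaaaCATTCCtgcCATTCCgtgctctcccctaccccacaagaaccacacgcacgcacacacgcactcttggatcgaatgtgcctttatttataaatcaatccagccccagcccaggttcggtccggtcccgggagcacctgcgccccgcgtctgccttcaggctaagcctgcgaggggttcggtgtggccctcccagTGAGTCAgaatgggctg
KLF9, 74.3 kb upstream: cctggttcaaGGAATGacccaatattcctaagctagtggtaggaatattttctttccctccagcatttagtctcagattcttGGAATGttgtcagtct
In the KLF9 region 5.01 kb upstream, 2 TEAD cores follow each other closely, and the whole region held 13 GC boxes, 3 AP-1 matches and the only KLF box among the lost KLF regions (16.1% of the list). A GC box was present in 6 of the 11 lost KLF regions and in 33.9% of the list. The first exon region of KLF9 held 6 GC boxes and 2 TEAD cores, while the region of 1009 bp between 70421001 and 70422009 matched none of the motifs.

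KLF12 and KLF13 had 1 narrow lost region each. KLF12, a repressor of the AP-2 alpha gene, spans 448 kb on the minus strand (chr13:73686089-74134404), and its lost region of 266 bp lay outside the GENCODE gene, 83998 bp upstream of the 5′ end, but inside the longer gene model of RefSeq. KLF13, known from its role in T cells and erythroid cells, spans 109 kb on the plus strand (chr15:31326835-31435665). Its lost region of 274 bp (31372199 to 31372472) was centred 45.5 kb from the 5′ end in the last exon of the canonical transcript, over the final 98 bp of the coding sequence and 176 bp of the 3′ untranslated part. Only 2.31% and 2.42% of lost regions were as narrow as these. The KLF12 region, printed in full on the plus strand (chr13:74218402-74218667), held a single AP-1 match, and the KLF13 region a single ATF4-C/EBP match, which 4.36% of lost regions held.
KLF12 lost region: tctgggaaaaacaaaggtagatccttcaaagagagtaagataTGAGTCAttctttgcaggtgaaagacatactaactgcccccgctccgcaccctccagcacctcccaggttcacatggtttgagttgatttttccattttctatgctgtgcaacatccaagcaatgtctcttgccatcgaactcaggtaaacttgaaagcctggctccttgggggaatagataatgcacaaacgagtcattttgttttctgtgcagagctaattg

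**Figure D3:**
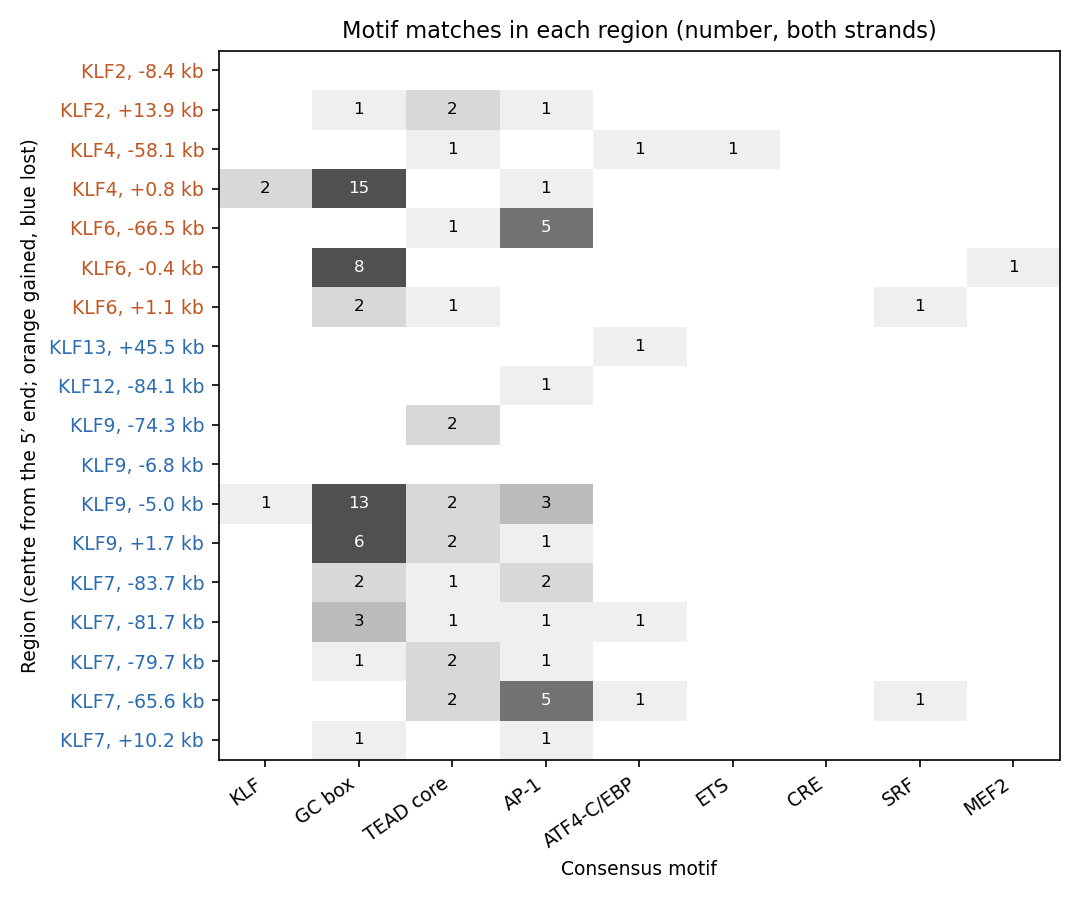
Number of matches of 9 consensus motifs (columns) in each of the 18 regions (rows), named by gene and by the distance of the region's centre from the 5′ end in kb, orange for gained and blue for lost. GC boxes gather at the starts of KLF4, KLF6 and KLF9 and 5 kb upstream of KLF9, and 5 AP-1 matches each stand in the distal regions of KLF6 and KLF7.

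At KLF4 and KLF6 the regions at the gene start were richer in CpG than the distal regions, whereas high values at KLF9 and KLF13 were also found away from the start of the KLF gene. The upstream KLF9 region among these lay near the 5′ end of ENSG00000289159. For the gained regions, the CpG observed/expected ratio was 0.937 at the start of KLF4, 0.824 and 0.748 at that of KLF6, and 0.157 to 0.296 in the other 4, while the median of the gained list was 0.247 (quartiles 0.162 and 0.649). Among the lost regions it was 0.832 at the first exon of KLF9, 0.641 in the wider region upstream of it and 0.882 at the last exon of KLF13, and 0.141 to 0.306 in the other 8. The median of the lost list was 0.202 (quartiles 0.146 and 0.274). The values at KLF9 and KLF13 were higher than or equal to 98.4% and 99.1% of lost regions. GC content ranged from 42.0% to 62.5% in the lost and from 40.1% to 68.6% in the gained KLF regions, with medians of 48.4% and 52.8%, compared with 46.8% and 46.1% in the lists. The median width was 2000 bp for the lost and 1868 bp for the gained KLF regions, compared with 1905 and 1697 bp.

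**Figure D4:**
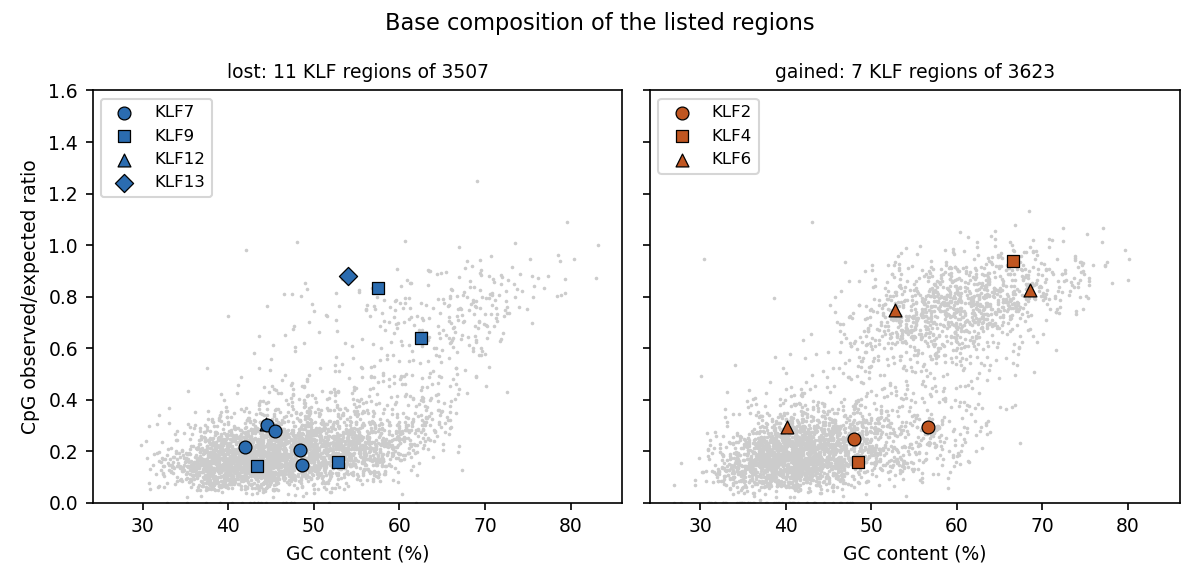
GC content (percent, horizontal) and CpG observed/expected ratio (vertical) of all lost (left) and gained (right) regions in grey, with the regions at KLF genes in colour and 1 marker shape per gene. The start regions of KLF4 and KLF6, the first exon and nearest upstream region of KLF9 and the KLF13 region lie at ratios of 0.641 or higher, and the other 12 at 0.306 or lower (the KLF12 triangle is largely hidden by a KLF7 circle).

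No listed region was found at KLF5, KLF10 and KLF11. KLF5, which promotes proliferation, had its nearest listed region, the lost region of KLF12, 1160 kb from the 5′ end, and its nearest gained region 1770 kb away. For the TGF-beta-inducible KLF10 (nearest lost region 152 kb and gained region 204 kb away) and the related repressor KLF11 (lost and gained regions both 240 kb away), the nearest regions lay closer but outside the window. Since unchanged regions are not in the lists, an acetylated gene without change and a gene without H3K27ac cannot be told apart here.

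Within 500 kb of the 5′ end, 6 of the 10 KLF genes had both kinds of region. The same share over all protein-coding genes was not counted, so nothing is read from this number. KLF6 had 5 gained and no lost regions, KLF9 had 7 lost and 2 gained, KLF7 had 5 lost and 3 gained, KLF2 had 2 lost and 3 gained, and KLF4 and KLF11 had 3 of each, while KLF10 had 2 lost and 1 gained. KLF13 had 2 lost and KLF12 1 lost region at this distance, with no gained one, and KLF5 had none. The nearest region of the opposite direction lay 132 kb (KLF2) to 7090 kb (KLF6) from the 5′ end of the genes with gained regions, and 137 kb (KLF7) to 1340 kb (KLF13) from that of the genes with lost regions.

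Genes that work with KLF proteins were counted by the same rule, in 5 lists with 44 genes, and are to be read against the shares over all protein-coding genes (21.6% with a lost region, 30.5% with a gained one). Since the lists are short, nothing is read from their counts. Of the 8 other KLF genes, only KLF1, the erythroid factor, had regions (1 lost and 1 gained), and of the 9 SP genes, SP1 and SP7 had 1 gained region each, all of them nearer to another protein-coding gene. Among 10 co-regulators, CTBP1, for the corepressor bound by KLF12, had a gained region 294 bp from its 5′ end, besides 1 gained and 1 lost region more than 56 kb away. CTBP2 had 3 gained regions, all over 114 kb into the gene, HDAC3 had 2 lost regions, and HDAC1 and KAT2B had 1 of each kind. All of these were nearer to another protein-coding gene. SIN3A, SIN3B, HDAC2, EP300 and CREBBP had no region. Among 7 upstream regulators, MAP2K5, for a kinase above MAPK7, had 1 gained region 19979 bp from its 5′ end and MEF2A 1 gained region in the gene body. Both regions were nearer to another protein-coding gene, and the other 5 regulators had none. Of 10 genes described as KLF targets, 2 had lost regions only, 5 gained regions only, 1 both and 2 neither, while neither was found at 55.1% and both at 7.2% of protein-coding genes. COL1A1, which codes for the main chain of type I collagen, had 4 lost regions, all closest to its own 5′ end and 0.122 to 8.82 kb from it. COL1A1 also had 2 gained regions, 4.12 and 87.0 kb from that 5′ end, and 1 of them was closest to it. For the TGF-beta receptors, TGFBR1 had 4 lost regions, 27.6 to 82.1 kb from its 5′ end, whereas TGFBR2 had 2 gained regions, 1 of them over its 5′ end. SMAD7, for the inhibitory SMAD that KLF10 represses, had 1 gained region 15.3 kb from its 5′ end. NOS3 had 4 lost regions, and CDKN1A, PLAU and THBD had 1 distant gained region each, all of them nearer to another protein-coding gene. TGFB1 and ENG had none. In these 5 lists, 12 of 38 pairs of a gene and a region had that gene as the nearest protein-coding one.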

How the data were processed

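H3K27ac was measured in 8 ChIP-seq libraries of LX-2 cells, 4 from each arm. The other 8 of the 16 samples (input DNA and column purified chromatin) were not analysed here. According to the study's methods, the authors aligned reads to hg38 with Chromap, removed duplicates and blacklisted reads, called peaks per library against input DNA with MACS2 (2.1.1.20160309), divided peaks into bins and tested both arms with MAnorm2. Each deposited list holds chromosome, start and end in base pairs, with no column of any single sample. The names of the deposited lists give an adjusted p threshold of 0.15, the methods a stricter one. Bins from 1 wide peak are listed as several abutting regions. Read depth is unknown, and no interval can be given.

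Starts were converted to count from 1. Genes, 5′ ends and exons came from GENCODE release 44 (20046 protein-coding genes), sequences from hg38, and promoter windows and second gene models from RefSeq on the same build. A region belonged to a gene when any base met the rule. Regions of 1 list with neighbouring centres within 50 kb formed a run. Counting and motif search (Python 3.11.15, pandas 2.3.3, pysam 0.24.0) were tested on simulated data. Printed sequences are the stretches of at most 300 bases with the most matches outside exons of the KLF gene, with 10 flanking bases, the upstream bases of a start inside a region, or a whole region. Genes named are all members, the fixed lists of related genes and annotated genes at the listed regions of members. The members, lists and motifs were chosen with earlier results of these data known.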

Additional observations from a re-analysis of the deposited data

How the results depend on the processing

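No paired analysis was possible because no value per replicate is given for any region, and for the same reason leaving out replicates and a stricter threshold were not run. With a window of 50 kb in place of 100 kb, the KLF genes had 5 lost regions in place of 11. With 2500 bp they had 3 lost and 3 gained (in place of 7), and with each run counted once 6 lost. Regions in the gene body were kept at both windows. The 3 lost regions at 2500 bp thus include those inside KLF7 and KLF13, which lay farther than 2500 bp from the 5′ end. The numbers of KLF genes with lost and with gained regions stayed within 1.5 times the reported counts under all 8 settings, and none of these settings gave a KLF gene both kinds of region. Of 160 counts for single genes under these settings, 12 moved past that limit. KLF12 then had no region at 50 kb, and KLF2 none at 2500 bp. Of 18 motif counts in the central 1000 bp, 6 moved past the limit, among them the lost KLF regions with a TEAD core (4 in place of 7; whole list 57.4% in place of 73.5%) and with AP-1 (5 in place of 8; list 42.0% in place of 56.5%). The share of genes with a gained region was 20.4% for isolated genes, a background chosen after seeing the data. The threshold and the unknown depth set which regions were listed, and this was not tested.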
